A study of Mus musculus with 30 samples.

Results

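Glutamate and GABA carry most of the fast excitation and inhibition in the brain, and the genes described here encode the subunits of their receptors. The group was defined by gene symbol and comprised the AMPA (Gria), NMDA (Grin), kainate (Grik), delta (Grid) and metabotropic (Grm) glutamate receptor genes and the GABA-A (Gabr) and GABA-B (Gabbr) receptor genes. A member was kept when 1 of its probes was above background on at least 5 of the 30 arrays. Of the 37 genes of the group that had a named probe, 26 met this rule, among 13226 genes tested in all. They were 4 AMPA, 4 NMDA, 4 kainate, 6 metabotropic glutamate, 7 GABA-A and 1 GABA-B receptor genes.

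The study measured RNA from the nucleus accumbens, a ventral part of the striatum, on Illumina bead arrays. C57BL/6J mice received saline or 4 mg/kg of dexamethasone, a synthetic steroid that activates the glucocorticoid receptor, and RNA was taken 4 h later. For each agent there were 5 arrays of magnetically sorted astrocytes, 5 of magnetically sorted neurons and 5 of whole nucleus accumbens tissue, with the RNA of different mice kept on different arrays. The labels do not give the sex or age of the mice, the surface antigens used for sorting, or whether the sorted cells and the tissue came from the same mice.

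AMPA, NMDA and kainate receptors are cation channels opened by glutamate, each assembled from several related subunits, whereas metabotropic receptors act through G proteins. GABA-A receptors are chloride channels built mostly from alpha, beta and gamma or delta subunits, and GABA-B receptors are G protein-coupled dimers. The principal cells of the nucleus accumbens are medium spiny neurons, which release GABA and receive glutamate input, while astrocytes take up both transmitters and carry some of the same receptors.

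The upstream sequences of 4 members are shown because they had the 2 largest differences between astrocytes and neurons in each direction among the 19 of 26 members with an entry in RefSeq's promoter table for GRCm38.p6. Each run is the 250 bases before an annotated transcription start, 5′ to 3′ on the strand of the gene, in lower case, with capitals marking GC boxes (the letters GGGCGG on either strand). Grin2c (chr11:115267244-115267493, minus strand) and Gabrg1 (chr5:70842618-70842867, minus strand) were higher in astrocytes. Grm7 (chr6:110645262-110645511, plus strand, 1 of 2 annotated starts) and Grik2 (chr10:49788755-49789004, minus strand) were lower in astrocytes.
Grin2c: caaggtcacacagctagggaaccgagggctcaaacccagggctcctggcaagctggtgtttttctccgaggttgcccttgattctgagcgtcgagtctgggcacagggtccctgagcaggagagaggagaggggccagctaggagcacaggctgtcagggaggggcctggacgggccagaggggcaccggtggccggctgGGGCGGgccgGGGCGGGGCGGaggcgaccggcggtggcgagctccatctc
Gabrg1: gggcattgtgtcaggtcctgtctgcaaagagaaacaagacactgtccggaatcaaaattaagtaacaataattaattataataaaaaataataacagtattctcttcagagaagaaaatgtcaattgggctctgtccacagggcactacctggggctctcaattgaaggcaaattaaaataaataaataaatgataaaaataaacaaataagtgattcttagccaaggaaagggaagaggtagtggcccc
Grm7: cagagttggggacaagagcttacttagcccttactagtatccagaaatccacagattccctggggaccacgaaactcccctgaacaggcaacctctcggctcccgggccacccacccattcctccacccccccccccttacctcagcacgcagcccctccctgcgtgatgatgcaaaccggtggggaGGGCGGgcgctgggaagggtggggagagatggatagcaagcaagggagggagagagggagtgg
Grik2: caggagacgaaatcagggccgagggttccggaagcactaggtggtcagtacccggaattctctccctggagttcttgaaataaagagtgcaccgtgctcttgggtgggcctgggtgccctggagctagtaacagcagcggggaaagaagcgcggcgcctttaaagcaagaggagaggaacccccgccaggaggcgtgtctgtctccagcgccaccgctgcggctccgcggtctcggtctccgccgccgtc

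The Grin2c window held 15 CpG dinucleotides and 3 GC boxes, 2 of which overlap in the longer run of capitals. The Gabrg1 window, also of a gene higher in astrocytes, held 1 CpG and no GC box. The Grm7 window held 8 CpG and 1 GC box, and the Grik2 window 20 CpG and no GC box, so neither feature separated these 4 genes by preparation. Over the first listed window of the 19 members, a GC box was present in 10 (52.6%), against 32.9% of the first windows of all 27025 genes. The letters AGAACA, the core of a glucocorticoid receptor binding sequence, were present on either strand in 2 of the 19 first windows (10.5%), against 16.2% of all genes, and over all listed starts in windows of Gabrb2, Grin3b and Grm8. The letters TATAAA were present in 3 (15.8%) against 13.0%. These matches describe letters in a short window and say nothing about binding.

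All levels below are log2 intensities after background correction and quantile normalization, and a gene is represented by its brightest probe that passed the rule. A probe was above background on an array when its intensity was reached by fewer than 5% of 1552 probes for chemosensory receptor genes (odorant, vomeronasal, trace amine and taste). Levels of different genes come from different probes and were not compared with each other. Differences were tested with limma, p-values were adjusted over all 13226 genes, and a gene was called at an adjusted p under 0.05.

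Between 36.2% and 50.1% of probes were above background on an array. The highest value, 50.1%, belonged to replicate 5 of dexamethasone-treated tissue, whose mean correlation with the other 4 arrays of its group was 0.909, whereas for the other 29 arrays the lowest was 0.948. The 14 tested genes of a list of 15 astrocyte markers were all higher in astrocytes than in neurons, and the 12 tested genes of a list of 14 medium spiny neuron markers were all lower. The sorts were not free of other cells. The mean log2 level of 7 oligodendrocyte markers was 13.42 to 14.12 on the saline astrocyte arrays and 12.20 to 13.24 on the saline neuron arrays, against 14.11 to 14.29 in tissue. The mean level of 9 microglia markers on saline arrays was 8.67 to 9.42 in astrocytes, 6.20 to 6.42 in neurons and 9.45 to 9.72 in tissue. That of 3 red blood cell markers was 13.23 to 14.02 in neurons, 9.17 to 10.42 in astrocytes and 9.99 to 10.79 in tissue. Fkbp5, a direct target of the glucocorticoid receptor, rose 14.4-fold with dexamethasone in astrocytes (limma adjusted p = 2.66e-05) and 2.16-fold in tissue (adjusted p = 0.0206), and in neurons its log2 difference was 0.63 ± 0.19 (SE; adjusted p = 0.486).

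In saline-treated mice most of the receptor genes were lower in astrocytes than in neurons, but 5 were higher. Of the 26 members, 15 were lower in astrocytes, led by Grm7, Gabrd, Grm5 and Gria3, at 17.0-, 15.7-, 12.8- and 8.62-fold. The 5 that were higher were Grin2c, Gabrg1, Gabrb1, Grm3 and Gabbr1. Among all genes tested, 31.2% were called lower and 26.9% higher in astrocytes, so calls were frequent everywhere. The median log2 difference of astrocytes from neurons was -0.88 over the 26 members and -0.08 over all genes. Grin2c, Grin3b and Grm3 met the rule of 5 arrays only through astrocytes, with 10, 5 and 5 astrocyte arrays above background and 1, 1 and 2 others. In the other direction, Gria4, Grm4 and Grm8 met it with 0 astrocyte arrays above background, and Gabra3 and Grik1 with 1. Of these, all but Grik1 are among the members counted as lower in astrocytes than in neurons. These counts therefore describe the 26 genes and not the 37.

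**Figure D1:**
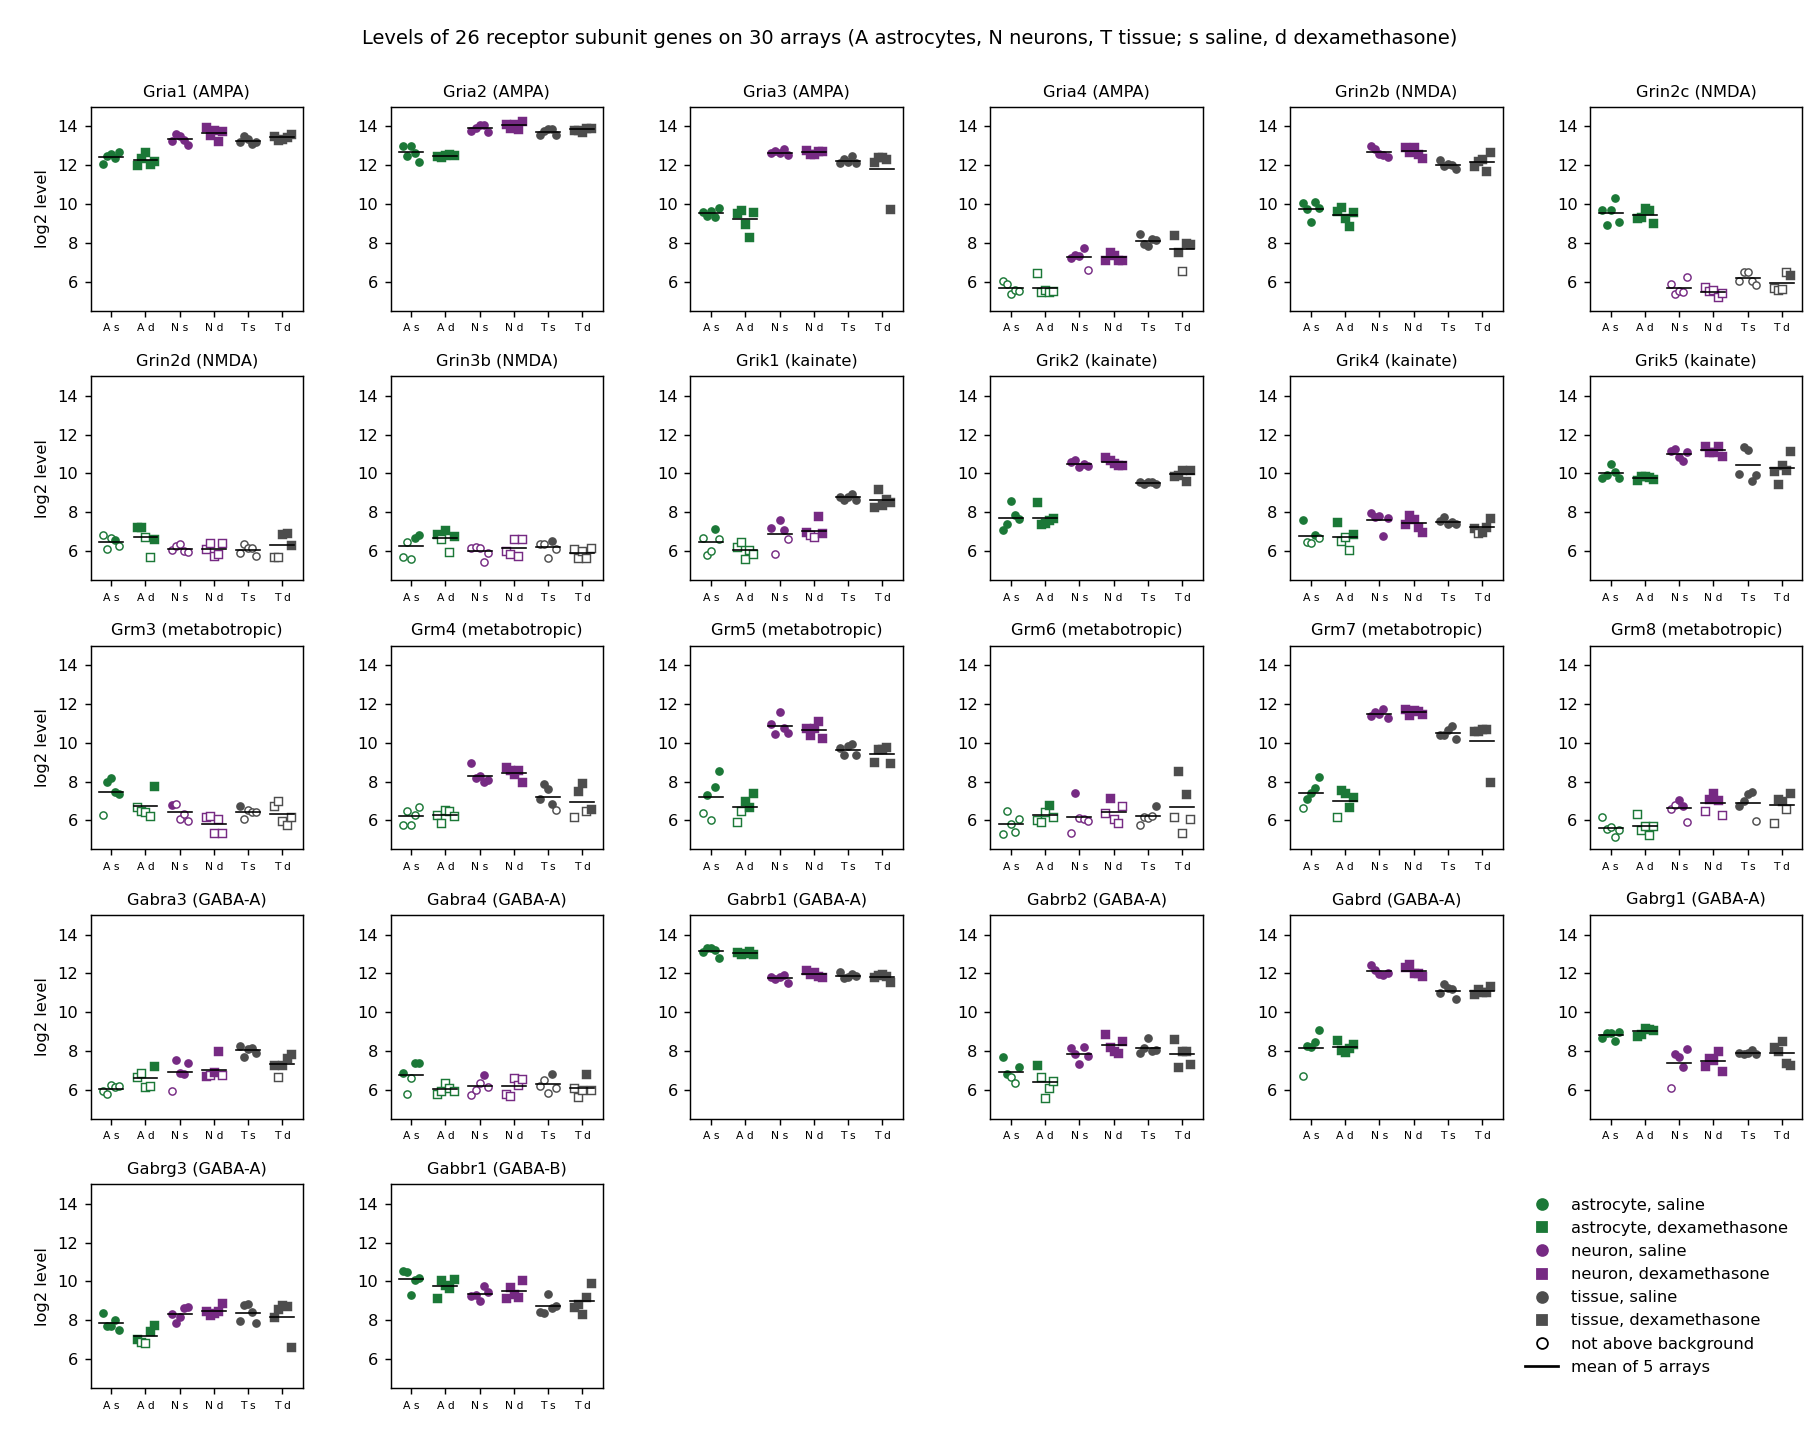
Log2 level of each of the 26 receptor subunit genes on each of the 30 arrays, 1 panel per gene, with saline and dexamethasone arrays of astrocytes (A), neurons (N) and tissue (T) side by side and a line at the mean of 5 arrays. Filled points were above background and open points were not. Grin2c stands out by its filled astrocyte points at 8.91 to 10.29 with nearly all other points open, and replicate 5 of dexamethasone-treated tissue lies below its group for Gria3 (9.73) and Grm7 (7.96).

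Among the AMPA receptor genes, whose products form the main fast glutamate channel, all 4 were lower in astrocytes than in neurons and lower than in tissue. Of all genes, 31.2% were called lower in astrocytes than in neurons and 27.6% lower than in tissue. Gria3 had log2 levels of 9.61, 9.36, 9.65, 9.31 and 9.80 on the saline astrocyte arrays. It had 12.61, 12.72, 12.62, 12.82 and 12.50 on the saline neuron arrays and 12.14, 12.33, 12.18, 12.46 and 12.10 in saline tissue. The astrocyte values lay far below both other groups with no overlap, and the log2 difference from neurons was -3.11 ± 0.12 (SE; limma adjusted p = 1.19e-11, n = 5 arrays a group). Gria4 was not above background on any saline astrocyte array. Neurons exceeded astrocytes at least 1.42-fold (limma adjusted p = 2.90e-06) and tissue did so at least 2.59-fold (adjusted p = 3.41e-08), where its levels were 8.47, 7.92, 7.82, 8.19 and 8.15. Such bounds set the mean of the brighter group against the lowest signal that was above background on each array of the dimmer group, or the probe's own signal where that was higher.

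Gria2, which encodes the subunit that makes AMPA receptors poorly permeable to calcium, and Gria1 differed less. Gria2 averaged 12.66 ± 0.36 (SD, n = 5) in astrocytes and 13.91 ± 0.17 in neurons, a log2 difference of -1.25 ± 0.16 (SE). Gria1 averaged 12.43 ± 0.24 and 13.35 ± 0.23, a log2 difference of -0.92 ± 0.15. Both were bright in all 3 preparations, and both were above background on all 30 arrays. The sizes of these differences depended on the probe. Further probes gave -1.46, -1.60 and -1.61 for Gria1, -0.10 and -1.55 for Gria2, -1.44 and -2.23 for Gria3 and -2.05 for Gria4. All were below 0, and the order of the 4 genes was not the same from probe to probe.

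Of the 4 NMDA receptor genes, which encode coincidence-detecting glutamate channels, 1 was higher and 1 lower in astrocytes than in neurons. Among all genes 26.9% were called higher and 31.2% lower, near the shares of this family. Grin2c had levels of 9.70, 8.91, 9.69, 10.29 and 9.06 in saline astrocytes. No neuron array and no saline tissue array was above background for Grin2c, with measured values of 5.90, 5.35, 5.49, 5.48 and 6.22 in neurons and 6.03, 6.51, 6.50, 6.01 and 5.82 in tissue. It encodes the GluN2C subunit, and it was at least 7.05-fold higher in astrocytes than in neurons (limma adjusted p = 1.53e-09). Against tissue it was at least 8.02-fold higher (adjusted p = 1.60e-08). Grin2b encodes GluN2B, a subunit typical of forebrain neurons. It had 10.05, 9.73, 9.10, 10.13 and 9.77 in astrocytes, 12.98, 12.84, 12.58, 12.55 and 12.44 in neurons and between 11.79 and 12.26 in tissue. The 3 ranges did not overlap, and Grin2b was 7.59-fold lower in astrocytes than in neurons and 4.80-fold lower than in tissue.

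Grin2d and Grin3b were near background throughout. Grin2d, a subunit found in interneurons and early in development, was above background on 1 saline astrocyte array and on no saline neuron or tissue array. It was called higher in astrocytes than in tissue by 0.42 ± 0.16 (SE; limma adjusted p = 0.0344), with values of 6.12 to 6.80 against 5.74 to 6.38, which overlap. That call was lost in 13 of the repeats with other settings or with 1 array left out, at adjusted p between 0.0576 and 0.350. Grin3b differed from neurons by 0.27 ± 0.26 and from tissue by 0.06 ± 0.26, neither of them called.

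Kainate receptors modulate transmitter release and excitability, and 3 of their 4 genes were lower in astrocytes than in neurons. Of all genes, 31.2% were called lower. Grik2, which encodes the subunit GluK2, had 7.09, 7.41, 8.58, 7.87 and 7.65 in astrocytes and 10.59, 10.70, 10.35, 10.50 and 10.36 in neurons. Its tissue values of 9.54, 9.43, 9.55, 9.55 and 9.46 lay between the sorted preparations with no overlap. The log2 difference of astrocytes from neurons was -2.78 ± 0.21 (SE; limma adjusted p = 6.64e-09), although a second Grik2 probe, above background on 13 arrays, gave only -0.18, and -0.09 against tissue where the probe used gave -1.78. Grik5 and Grik4 encode subunits that form channels only together with others. Grik5 was lower than in neurons by -0.99 ± 0.30 and Grik4 by -0.80 ± 0.24.

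Grik1 behaved otherwise. It was bright only in tissue, at 8.77, 8.64, 8.80, 8.94 and 8.63, and in neurons it had 7.21, 5.84, 7.62, 7.06 and 6.59, of which 3 were above background. In astrocytes 1 array was above background and the level was 5.77 to 7.13. Grik1 was 3.72-fold lower in neurons than in tissue (limma adjusted p = 0.000163) and 4.98-fold lower in astrocytes than in tissue (adjusted p = 5.68e-06). Its difference between the sorted preparations was -0.42 ± 0.30 on the saline arrays and was not called there.

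Among the metabotropic glutamate receptor genes, 4 of 6 were lower in astrocytes than in neurons and 1 was higher. Of all genes, 31.2% were called lower and 26.9% higher. Grm7, a presynaptic group III receptor of low glutamate affinity, showed the largest log2 difference of all members, -4.09 ± 0.24 (SE; limma adjusted p = 3.92e-10). Its levels were 6.63, 7.10, 7.39, 7.66 and 8.24 in astrocytes, 11.38, 11.57, 11.50, 11.75 and 11.25 in neurons and 10.38, 10.41, 10.67, 10.88 and 10.17 in tissue. All neuron values lay above all tissue values, and all tissue values above all astrocyte values. The further Grm7 probes gave smaller differences in the same direction, -1.22 and -1.84.

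Grm5, the group I receptor coupled to phospholipase C, had 6.35, 7.31, 6.02, 7.70 and 8.53 in astrocytes against 10.97, 10.46, 11.60, 10.76 and 10.49 in neurons. The log2 difference was -3.67 ± 0.38 (SE), with the widest spread in astrocytes (SD 1.02), where 3 of 5 arrays were above background. A second Grm5 probe, above background on 22 arrays, gave a smaller difference of -2.58. In tissue Grm5 had 9.73, 9.36, 9.81, 9.94 and 9.38. Grm4, another group III receptor, was not above background on any astrocyte array, and neurons, whose 5 values ran from 7.98 to 8.94, exceeded astrocytes at least 2.95-fold (limma adjusted p = 4.03e-06). Grm8, of the same group, was also below background on every astrocyte array. It was called lower than in neurons (log2 difference -1.01 ± 0.27, limma adjusted p = 0.0047), where only 2 of 5 arrays were above background, so no fold is given. Against tissue it was at least 1.13-fold lower.

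Grm3 encodes the group II receptor mGlu3, known as the main metabotropic glutamate receptor of mature astrocytes, and it was the member of this family that was higher in astrocytes. Its levels were 6.26, 7.97, 8.20, 7.47 and 7.35 in astrocytes, 6.80, 6.83, 6.09, 6.34 and 5.98 in neurons and 6.75, 6.08, 6.51, 6.43 and 6.41 in tissue. Except for replicate 1, which was not above background, the astrocyte values lay above all values of neurons and tissue. The log2 difference was 1.04 ± 0.29 (SE; limma adjusted p = 0.00601) from neurons and 1.02 ± 0.29 (adjusted p = 0.00821) from tissue. On the dexamethasone arrays the difference from tissue was 0.40 (adjusted p = 0.330) and was not called. Grm6, the receptor of retinal bipolar cells, was above background on 6 of 30 arrays spread over 5 of the 6 groups and was called in no comparison of preparations on the saline arrays.

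The GABA-A receptor genes were called in both directions, with 3 of 7 lower and 2 higher in astrocytes than in neurons. Among all genes 31.2% were called lower and 26.9% higher, so these small counts do not set the family apart. Gabrd encodes the delta subunit of extrasynaptic receptors that carry tonic inhibition. Its levels were 6.70, 8.23, 8.19, 8.47 and 9.05 in astrocytes, 12.44, 12.17, 11.97, 11.91 and 12.03 in neurons and 10.99, 11.44, 11.25, 11.17 and 10.68 in tissue. The 3 ranges were apart, and the log2 difference of astrocytes from neurons was -3.98 ± 0.31 (SE; limma adjusted p = 1.35e-08). Gabrb2, a beta subunit, was lower than in neurons by -0.92 ± 0.24 and lower than in tissue by -1.22 ± 0.24. Gabra3, an alpha subunit, was not above background on any saline astrocyte array, and it was at least 1.11-fold higher in neurons (adjusted p = 0.00611) and at least 2.43-fold higher in tissue (adjusted p = 3.27e-06).

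Gabrb1 and Gabrg1, the beta 1 and gamma 1 subunits, were higher in astrocytes. Gabrb1 had 13.11, 13.29, 13.31, 13.19 and 12.79 in astrocytes, 11.83, 11.68, 11.79, 11.90 and 11.52 in neurons and 12.07, 11.73, 11.80, 11.94 and 11.85 in tissue. All astrocyte values were above all others, and the gene was 2.63-fold higher than in neurons (limma adjusted p = 7.26e-08) and 2.40-fold higher than in tissue (adjusted p = 3.84e-07). Gabrg1 had 8.66, 8.90, 8.95, 8.51 and 8.98 in astrocytes, with 6.07, 7.84, 7.68, 7.17 and 8.08 in neurons and 7.91, 7.82, 7.86, 8.03 and 7.86 in tissue. It was 2.70-fold higher than in neurons and 1.87-fold higher than in tissue, again without overlap. Gabrg3 and Gabra4, a gamma and an alpha subunit, were called in no comparison of preparations with all saline arrays, and the Gabra4 probe was above background on 6 arrays. Gabrg3 was called lower in astrocytes on the dexamethasone arrays, as described below.

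Gabbr1, the ligand-binding subunit of the GABA-B receptor, was above background on all 30 arrays and was higher in astrocytes. Its levels were 10.55, 10.49, 9.28, 10.09 and 10.16 in astrocytes, 9.26, 9.29, 8.97, 9.75 and 9.47 in neurons and 8.45, 8.35, 9.37, 8.62 and 8.76 in tissue. Astrocyte replicate 3 fell within the range of neurons and below 1 tissue array, and the other 4 astrocyte arrays lay above both groups. The gene was 1.70-fold higher than in neurons (limma adjusted p = 0.0121) and 2.64-fold higher than in tissue (adjusted p = 0.000121).

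The 5 members higher in astrocytes were set beside the marker lists that were also higher there. Lists of oligodendrocyte precursor (4 of 5 tested genes), oligodendrocyte (5 of 7), microglia (9 of 9) and mural cell (5 of 8) markers had genes called higher in astrocytes than in neurons under saline. Against tissue, astrocyte markers were higher in 14 of 14, as were 7 of 8 endothelial and 4 of 8 mural markers, but 0 of 5 precursor, 0 of 7 oligodendrocyte and 0 of 9 microglia markers. All 5 members were also called higher against tissue on the saline arrays, a call that Grm3 did not keep on the dexamethasone arrays. The part of these other cells in the members' levels was not tested. In all these bulk samples, fewer cells of a type and less RNA per cell cannot be told apart.

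**Figure D2:**
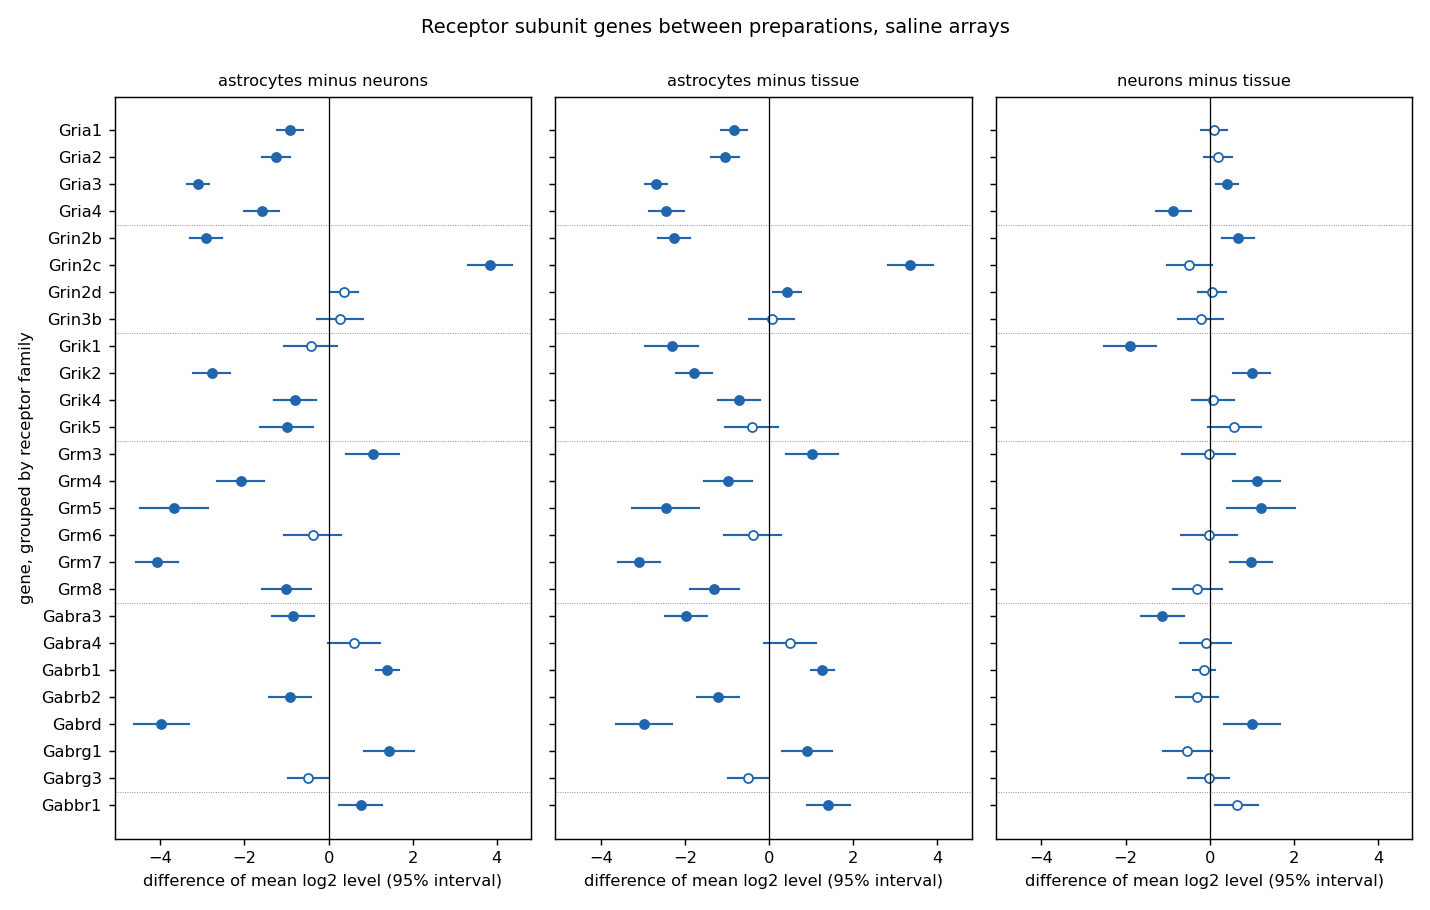
Difference of mean log2 level between preparations on the saline arrays for the 26 genes, ordered by receptor family, with 95% confidence intervals from limma and filled points for an adjusted p under 0.05. Most points in the left and middle panels lie left of 0, Grin2c lies farthest right at 3.84 and 3.36, and in the right panel Grik1 lies farthest left at -1.89.

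Astrocytes against tissue gave 15 members lower and 6 higher, against 27.6% and 24.2% of all genes called in those directions, with a median of -0.90 for the members and -0.04 for all genes. The 5 with the largest decrease were Grm7 at -3.10 ± 0.24 (SE), Gabrd at -2.98 ± 0.31, Gria3 at -2.70 ± 0.12, Grm5 at -2.46 ± 0.38 and Gria4 with its bound above. The 5 members higher than in neurons were higher here as well, and Grin2d was the sixth. Grik5 was called lower against neurons and not against tissue, where its 5 values spread from 9.59 to 11.36.

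Neurons differed less from tissue, with 7 members higher and 3 lower, a median of 0.02 for the members and 0.00 for all genes. Among all genes 11% were called higher and 15.9% lower. The 7 higher were Grm5 (1.22 ± 0.38, SE), Grm4 (1.12 ± 0.27), Gabrd (1.00 ± 0.31), Grik2 (1.00 ± 0.21), Grm7 (0.99 ± 0.24), Grin2b (0.66 ± 0.18) and Gria3 (0.41 ± 0.12). On the same arrays, 7 of 12 medium spiny neuron markers and 7 of 7 markers of newborn neurons or dividing cells were called higher in neurons than in tissue. So were 3 of 3 red blood cell markers, with a median of 3.57, and 5 of 8 endothelial markers, with a median of 0.95. Of 10 general neuron markers, 0 were higher and 6 were lower, with a median of -0.46. The part of these cell types in the members' differences was not tested. The second probe above background gave only 0.04 for Grm5 and 0.09 for Grik2.

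Single arrays or settings decided some of these calls. The adjusted p of Gabrd lay between 0.0501 and 0.0687 without neuron replicate 1 or 2 or tissue replicate 1 or 5. That of Grm5 lay between 0.0510 and 0.0683 without neuron replicate 1 or 3 or tissue replicate 2 or 5. For Gria3 it was 0.0515 without neuron replicate 4 and 0.0566 without tissue replicate 5, 0.244 with median centring in place of quantile normalization and 0.418 with all 30 arrays in 1 fit. Grin2b had an adjusted p of 0.0951 with median centring, and Grm7 one of 0.0504 with all 30 arrays in 1 fit.

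The 3 members lower in sorted neurons than in tissue were Grik1 (-1.89 ± 0.30, SE), Gabra3 (-1.13 ± 0.24) and Gria4 (-0.86 ± 0.20). Gabra3 had 5.91, 7.55, 6.88, 6.79 and 7.35 in neurons against 8.24, 7.71, 8.09, 8.17 and 7.91 in tissue, with no overlap. Gria4 had 7.20, 7.37, 7.30, 7.75 and 6.62 in neurons, all below the tissue values given above. Its second probe above background gave a difference of -0.02, and with the mean of both probes the difference was -0.44 (limma adjusted p = 0.0584), no longer called. These 3 members were low in both sorted preparations relative to tissue. On the same arrays, 7 of 9 interneuron markers were called lower in sorted neurons than in tissue, with a mean level of 8.46 to 8.72 against 9.68 to 10.22. In astrocytes 7 of the 9 were also lower than in tissue, and Nos1 and Th were above background on no saline astrocyte array. The part of interneuron RNA in the differences of these 3 members was not tested.

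The arrays of dexamethasone-treated mice gave a second set of mice for the same comparisons. Of the members called under saline between astrocytes and neurons, 4 of 5 higher and 14 of 15 lower were called again in the same direction, the exceptions being Gabbr1 (0.28 ± 0.28, SE) and Gabra3 (-0.40 ± 0.29). For all genes called there, 80.9% were called again. Against tissue, 4 of 6 higher and 12 of 15 lower members of the astrocyte comparison were called again, beside 76.2% of all genes, and Grin2d, Grm3, Gabra3, Grik4 and Grm4 were not. For neurons against tissue it was 5 of 7 and 1 of 3, beside 64.2% of all genes, and Grik1 was the 1 of 3, at -1.56 ± 0.23. Gria3, Grin2b, Gabra3 and Gria4 were not called again there. All members called under saline kept their sign. Other members were called on the dexamethasone arrays alone. Gabrg3 was lower in astrocytes than in neurons (-1.28 ± 0.34, SE; limma adjusted p = 0.00411) and than in tissue (-0.98 ± 0.34, adjusted p = 0.0251). Grik1 was lower in astrocytes than in neurons (-1.02 ± 0.23, adjusted p = 0.00134). Grin3b was higher in astrocytes than in tissue (0.75 ± 0.23, adjusted p = 0.0148), and Grik5 was higher in neurons than in tissue (0.91 ± 0.24, adjusted p = 0.00987). Whether these differences depended on the agent is the interaction test given further on, which called no member. Without replicate 5 of dexamethasone-treated tissue, 16 of the 21 and 7 of the 10 were called again, against 16 and 6 with it, and Gabbr1 was also called between neurons and tissue.

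**Figure D3:**
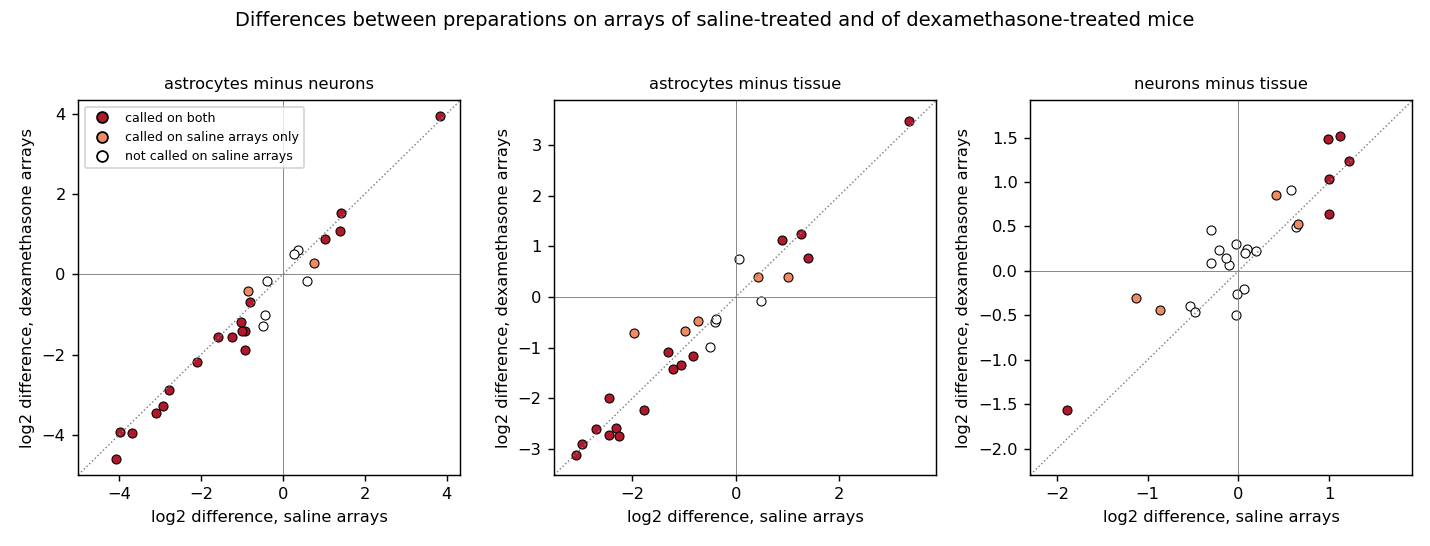
Difference of mean log2 level between preparations for the 26 genes on the saline arrays (horizontal axis) and on the dexamethasone arrays (vertical axis), 1 panel per pair of preparations, with the line of equality dotted. Dark points were called on both sets of arrays and light points on the saline arrays alone. The 20 members called in the left panel lie in the same quadrant on both axes, from Grm7 (-4.09 and -4.59) to Grin2c (3.84 and 3.94).

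Some members were measured by several probes. In 11 genes, 16 further probes were above background on at least 5 arrays, and all 16 differed in the same direction as the probe used in each of the 3 comparisons of preparations, although the differences of some were close to 0, as given above for Gria2, Gria4, Grik2 and Grm5. For the change with dexamethasone, 11, 12 and 11 of 16 did so in astrocytes, neurons and tissue. The size of the change also depended on the probe. In tissue the further Gria1 probes gave 0.45, 0.77 and 0.75, against 0.17 for the probe used. With the mean of the detected probes, 0 members were called for dexamethasone in tissue.

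Dexamethasone changed no member at the threshold in any preparation. Of the 26 genes, 0 were called in astrocytes, 0 in neurons and 0 in tissue by limma, against 1.77%, 0% and 0.0378% of all genes. At an unadjusted p under 0.05 there were 3, 1 and 2 members, where 10.1%, 7.04% and 5.68% of all genes passed. The lowest adjusted p of a member was 0.254 in astrocytes, 0.675 in neurons and 0.677 in tissue. The standard error of a member's change was 0.13 to 0.45 log2 units in astrocytes, 0.10 to 0.36 in neurons and 0.14 to 0.50 in tissue. Moderate changes could therefore go uncalled with 5 arrays a group, and not only those of the noisier members. Grik2 in tissue, at 0.44 ± 0.15 (SE), had a limma adjusted p of 0.726.

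**Figure D4:**
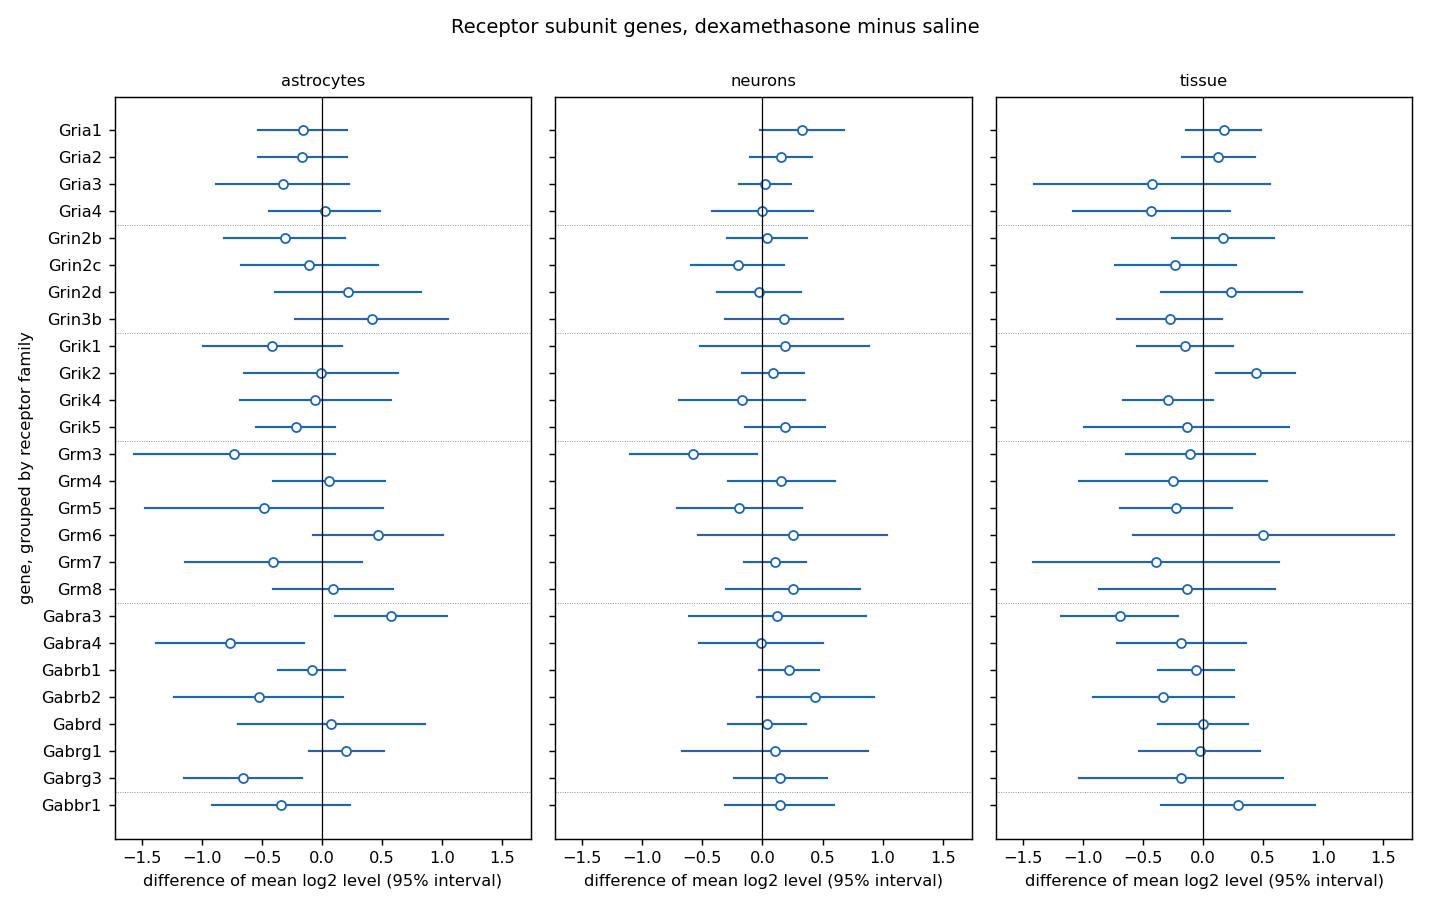
Difference of mean log2 level between dexamethasone and saline arrays for the 26 genes in astrocytes, neurons and tissue, with 95% confidence intervals from limma. All points are open because no adjusted p was under 0.05. The intervals of Gabrg3, Gabra4 and Gabra3 in astrocytes, Grm3 in neurons and Gabra3 and Grik2 in tissue do not include 0.

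In astrocytes the smallest p-values belonged to GABA-A subunits. Gabrg3 had 8.38, 7.70, 7.69, 8.02 and 7.50 under saline and 7.06, 6.89, 6.83, 7.47 and 7.77 under dexamethasone, where 3 of 5 arrays were above background. The ranges overlap at the highest dexamethasone array, and the log2 difference was -0.66 ± 0.22 (SE; limma adjusted p = 0.254). Gabra4 had 6.85, 5.75, 6.59, 7.36 and 7.36 under saline, 3 of them above background, and 5.77, 5.95, 6.34, 6.10 and 5.93 under dexamethasone, none of them above background. Saline was at least 1.02-fold higher for Gabra4, and the adjusted p of its log2 difference of -0.76 ± 0.28 was 0.317. Leaving out saline replicate 2, the lowest of that group, brought the adjusted p to 0.0393, the 1 case in which a member passed the threshold for an agent.

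Gabra3, with a log2 difference of 0.57 ± 0.21 (SE; limma adjusted p = 0.320), was above background on 1 of the 10 astrocyte arrays, dexamethasone replicate 5 at 7.24. Grm3 had 6.70, 6.48, 6.43, 6.21 and 7.79 under dexamethasone against the saline values given above. Its log2 difference was -0.73 ± 0.38, with 1 of 5 dexamethasone arrays above background against 4 of 5 saline arrays and an adjusted p of 0.613. Grm6 differed by 0.47 ± 0.25, with 1 of the 10 arrays above background.

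The members that set astrocytes apart from neurons showed no change at the threshold in astrocytes. Grin2c had 9.28, 9.34, 9.77, 9.68 and 9.03 under dexamethasone, within its saline range of 8.91 to 10.29. Gabrb1 had 13.11, 12.98, 13.04, 13.16 and 12.98, within its saline range of 12.79 to 13.31. Gabrg1 had 8.76, 8.85, 9.20, 9.15 and 9.05, and Gabbr1 had 9.14, 10.08, 9.82, 9.67 and 10.13. Over the 26 members 17 of the log2 differences were negative, with a median of -0.13 against -0.01 for all genes. Of 10 neuron markers, 9 were also negative in astrocytes with a median of -0.22, 1 of them called, and their mean level was 9.73 to 10.17 under saline and 8.94 to 9.93 under dexamethasone. The part of residual neuronal RNA in these differences was not tested.

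In neurons the 5 smallest p-values were those of Grm3, Gria1, Gabrb2, Gabrb1 and Gria2. Grm3 had 6.80, 6.83, 6.09, 6.34 and 5.98 under saline, with replicate 1 above background, and 6.16, 6.22, 5.35, 6.07 and 5.35 under dexamethasone, all at background. Its log2 difference was -0.58 ± 0.24 (SE; limma adjusted p = 0.675), and no fold is given. On the same neuron arrays all 14 astrocyte markers were lower under dexamethasone, with a median of -1.12 and none called, and a mean level of 8.67 to 9.84 under saline and 7.81 to 8.71 under dexamethasone. The part of astrocyte RNA in the difference of Grm3 was not tested.

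Gria1 had 13.26, 13.64, 13.52, 13.29 and 13.06 in saline neurons and 13.99, 13.57, 13.84, 13.26 and 13.76 in dexamethasone neurons, a log2 difference of 0.33 ± 0.16 (SE; limma adjusted p = 0.730) with overlapping ranges. Gabrb2 had 8.15, 7.82, 7.33, 8.22 and 7.72 against 8.86, 8.19, 8.00, 7.87 and 8.53, a difference of 0.44 ± 0.22 (adjusted p = 0.747). Gabrb1 and Gria2 differed by 0.22 ± 0.11 and 0.15 ± 0.12. Of the 26 members, 19 had a positive difference in neurons, with a median of 0.11 against -0.01 for all genes. None passed the threshold. On the same arrays 8 of 10 neuron markers were positive and 2 negative, with a median of 0.12 and 0 called. For 12 medium spiny neuron markers it was 8 and 4, with a median of 0.03. The part of the share of neuronal RNA in the members' differences was not tested.

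In tissue the 5 smallest p-values were those of Gabra3, Grik2, Grik4, Gria4 and Grin3b. Gabra3 had 7.26, 6.64, 7.25, 7.65 and 7.85 under dexamethasone, against 7.71 to 8.24 under saline, and was lower with dexamethasone on each of the 5 chips, which the replicate numbers mark. Its log2 difference was -0.69 ± 0.22 (SE; limma adjusted p = 0.677). Grik2 had 9.85, 9.91, 10.16, 9.62 and 10.18 under dexamethasone, all above the saline values of 9.43 to 9.55, and differed by 0.44 ± 0.15 (adjusted p = 0.726). Grik4, Gria4 and Grin3b differed by -0.29 ± 0.17, -0.43 ± 0.30 and -0.28 ± 0.20, with overlapping ranges. Without replicate 5 of dexamethasone-treated tissue, the differences of Gabra3 and Grik2 were -0.82 ± 0.20 (adjusted p = 0.224) and 0.38 ± 0.13 (adjusted p = 0.423).

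That array also set the sign of some tissue differences. With it, 19 of 26 members had a negative difference and the median was -0.14, against -0.04 for all genes. Without it, 14 were negative and the median was -0.07, against -0.02 for all genes. Gria3 had 12.17, 12.45, 12.44, 12.31 and 9.73 in dexamethasone-treated tissue, and its log2 difference moved from -0.42 to 0.10 when the last array was left out. Grm7 had 10.59, 10.61, 10.71, 10.69 and 7.96, and moved from -0.39 to 0.15. No member was called in tissue with or without the array.

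The response to dexamethasone was compared between preparations by an interaction term over all 30 arrays. No member was called for astrocytes against neurons, for astrocytes against tissue or for neurons against tissue by limma, beside 0.824%, 0.355% and 0.0529% of all genes. At an unadjusted p under 0.05 there were 2, 1 and 1 members, beside 7.27%, 6.52% and 4.52% of all genes. Gabra3 gave the smallest p: its response in astrocytes exceeded that in tissue by 1.27 ± 0.39 log2 units (SE; limma adjusted p = 0.256), and that in neurons exceeded that in tissue by 0.82 ± 0.39 (adjusted p = 0.984). Between astrocytes and neurons, Gabrb2 differed by -0.97 ± 0.41 (adjusted p = 0.510) and Gria1 by -0.49 ± 0.22 (adjusted p = 0.565). Gabra4, Gabrg3 and Gabrb1 followed at -0.75 ± 0.38, -0.81 ± 0.42 and -0.31 ± 0.17. Against tissue, the astrocyte response of Grin3b, Grin2b, Gabbr1 and Gria1 differed by 0.69 ± 0.35, -0.48 ± 0.28, -0.63 ± 0.38 and -0.33 ± 0.22. The neuron response of Gabrb2, Gabrb1, Grin3b and Grik2 differed from that of tissue by 0.77 ± 0.41, 0.28 ± 0.17, 0.46 ± 0.35 and -0.35 ± 0.29. These 3 tests share arrays and are not independent of each other.

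Receptor channels work with auxiliary subunits and scaffolds, which were described in 4 lists, each to be read beside all genes. Of all genes, 31.2% were called lower and 26.9% higher in astrocytes than in neurons, with a median of -0.08. Against tissue, 27.6% were lower and 24.2% higher in astrocytes, with a median of -0.04. In neurons against tissue, 11% were higher and 15.9% lower. Of 16 auxiliary subunits of AMPA and kainate receptors, 13 were tested, and under saline 10 were lower and 0 higher in astrocytes than in neurons, with a median of -1.93. Cacng3 and Shisa7, which encode AMPA receptor auxiliary proteins, differed by -4.15 ± 0.21 (SE) and -3.50 ± 0.19, and Neto1 and Neto2, auxiliary to kainate receptors, by -3.47 ± 0.19 and -3.54 ± 0.26. Against tissue, 9 were lower in astrocytes and 0 higher. In neurons against tissue, Gsg1l (1.10 ± 0.21), Cacng4 (1.13 ± 0.27), Shisa9 (0.80 ± 0.21), Neto2 (0.88 ± 0.26) and Neto1 (0.62 ± 0.19, named after its value was seen) were higher and 0 were lower.

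Of 26 genes for excitatory scaffolds and trafficking, 19 were tested, and 15 were lower in astrocytes than in neurons with a median of -1.57. Camk2b, a kinase subunit of the postsynaptic density, differed by -2.83 ± 0.21 (SE), Nptx2, a pentraxin that clusters AMPA receptors, by -2.68 ± 0.20, and Nsf, a fusion ATPase that binds GluA2, by -1.94 ± 0.15. The 1 gene that was higher, Dlgap1 at 0.55 ± 0.12, is named after its value was seen. In neurons against tissue 6 were higher, among them Shank3 at 1.28 ± 0.25, Camk2a at 1.10 ± 0.26 and Dlg2 at 0.96 ± 0.21, and Nptx1 was lower at -1.0 ± 0.27.

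Of 14 inhibitory scaffold and trafficking genes, 10 were tested, and 6 were lower and 1 higher in astrocytes than in neurons, with a median of -0.65. Against tissue 4 were lower and 3 higher, with a median of -0.21, near the 27.6% and 24.2% of all genes. The 3 higher were Gabarap (0.31 ± 0.12, SE), Insyn1 (0.62 ± 0.23) and Trak2 (0.70 ± 0.22, each named after its value was seen). Nlgn2, the neuroligin of inhibitory synapses, differed by -1.35 ± 0.13 (SE), and Gabarap, which binds GABA-A receptors, was the 1 that was higher, at 0.48 ± 0.12. Insyn1 was 1.69 ± 0.23 higher in neurons than in tissue and Trak2 1.24 ± 0.22. Among the 4 tested of 6 auxiliary or associated proteins of GABA-B receptors, Kctd12b (2.62 ± 0.17) and Amigo2 (1.24 ± 0.16) were higher in astrocytes than in neurons, and Ajap1 (-3.21 ± 0.21) and Kctd12 (-0.51 ± 0.15) were lower. With dexamethasone no gene of the 4 lists was called in any preparation. The nearest were Amigo2 in astrocytes at 0.66 ± 0.15 (limma adjusted p = 0.0646) and Grasp, a trafficking scaffold of group I metabotropic receptors, at 0.71 ± 0.22 (adjusted p = 0.181).

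The 11 members with a named probe that did not meet the rule were Gabbr2, Gabra5, Gabra6, Gabrp, Gabrq, Gabrr1, Gabrr2, Grik3, Grin2a, Grin3a and Grm2. The nearest to the limit was Grin2a, above background on 4 arrays, and the nearest inside it were Gabra4, Grin3b and Grm6 with 6 arrays each. Gabbr2, the partner of Gabbr1 in the GABA-B receptor, was above background on 0 of 30 arrays, as were Gabra5, Gabra6, Gabrr2, Grik3, Grin3a and Grm2. A probe at background sets only an upper limit and does not show that a gene is silent.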

How the data were processed

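RNA of 30 samples was measured on Illumina bead arrays. The authors deposited a table of log2 intensities for 46174 probes, not normalized between arrays and without detection p, and a value table equal to the log2 of its quantile-normalized values. That second table was used only as an alternative. Which scanner software, background step and test the authors used is not given in the sources used here. Because the deposited files hold no control probes or detection p, 1552 probes for chemosensory receptor genes (odorant, vomeronasal, trace amine and taste) served as negative controls, which could shift the levels of dim probes. Intensities were corrected with limma 3.58.1 (R 4.3.3) by normexp with an offset of 16, quantile-normalized over 30 arrays and taken to log2. The offset compresses differences of dim probes.

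The platform annotation named 1 gene for 35725 probes, several for 0 and none for 10449. Names were updated through RefSeq by Entrez ID (28566 probes) or accession (2632), and 4527 kept their symbol. Apart from the stand-in controls, 22552 of 44622 probes were above background on at least 5 arrays. The brightest such probe stood for a gene. The members had 75 probes in all.

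Groups came from the labels. Dexamethasone was tested within each preparation, preparations on the 15 saline arrays, and interactions on all 30 arrays, with lmFit and eBayes, two-sided, and Benjamini-Hochberg adjustment. The procedure was tested on simulated data. The number of arrays limits the precision. Per the labels, the 6 arrays of a replicate number shared a chip and each group had a fixed position on it, and the effects of position and of group cannot be told apart. The mean correlation of same-numbered arrays' deviations within a preparation was 0.19 in astrocytes, 0.17 in neurons and 0.05 in tissue. The replicate number pairs the arrays by the labels' chip, and the blocked fit is an alternative.

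The members and lists were chosen with earlier results of these data known. Values by array or range were given for members called for an agent, for the 5 smallest p-values per dexamethasone and interaction test and for the 5 largest differences each way between preparations, and partner genes by the 4 smallest p-values per list. Alternatives covered the chip block, background, offset, normalization, source table, dim-probe filter, probe choice, arrays in the fit, agent, array weights and left-out arrays.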

Additional observations from a re-analysis of the deposited data

Results flagged for a closer look

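In 9 of 156 gene and group combinations, 1 array lay farther from the other 4 of its group than Dixon's criterion allows, and chance gives about 5% of such combinations. In dexamethasone-treated tissue, replicate 5 was the lowest array for 4 genes. Gria3 had a log2 level of 9.73 against 12.17 to 12.45 on the other arrays, Grm7 had 7.96 against 10.59 to 10.71, Gabrg3 had 6.63 against 8.18 to 8.76 and Gabrb1 had 11.54 against 11.83 to 11.95. This is the array with the highest share of probes above background and the lowest correlation with its group.

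In dexamethasone-treated neurons, replicate 4 was the highest array for Gabra3, at 8.01 against 6.70 to 6.90, and for Grik1, at 7.81 against 6.72 to 6.97. In saline-treated neurons, replicate 4 was the lowest array for Grik4, at 6.76 against 7.68 to 7.97. In dexamethasone-treated astrocytes, replicate 1 was the highest array for Grik2, at 8.51 against 7.37 to 7.68, and for Gria4, at 6.42 against 5.45 to 5.58, where no array was above background.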

How the results depend on the processing

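The counts of members called were recomputed under each alternative setting and kept within 1.5 times of the reported counts, with 1 exception. In astrocytes with dexamethasone, leaving out each array in turn gave 0 to 1 members called, the 1 being Gabra4 without saline replicate 2. The chip block (paired by replicate number) gave 0 members for dexamethasone in each preparation and 0 for each interaction, and 20, 21 and 10 members between preparations, all shared with the fits without it, so that it changed no call of a member. Without a filter on dim probes, 22, 23 and 10 members were called between preparations. With only probes above background on all 5 arrays of a group compared, 16, 17 and 11 were called. That stricter filter left out Gabra3, Gria4, Grm3 and Grm8 between astrocytes and neurons. Between astrocytes and tissue it left out Grin2d, Grm3, Grm4 and Grm8. Single members were followed only where they were called between preparations or had 1 of the 5 smallest p-values of a dexamethasone or interaction test. Of these, 308 of 309 recomputed dexamethasone differences and 431 of 432 interaction differences stayed on the same side of the threshold and of 0. Other members, such as Gria3 and Grm7 in tissue, whose sign turned without 1 array, were not counted. The response of Gria1 in astrocytes against tissue turned from -0.33 to 0.10 with median centring, which moved the median interaction of all genes to 0.29 log2. Between preparations 45 of 1094 values lost their call and 0 changed sign, not counting members that a filter left out. The cause was not tested. In all 13226 genes, calls for dexamethasone in astrocytes numbered 234, and 148 to 368 over the alternatives. In neurons they numbered 0, and up to 53, and in tissue 5, and 0 to 24. Many members lie near background, where signal limits what a difference can show.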
